A study of Mus musculus with 4 samples.

Results

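Chemokine ligands were examined as the 33 genes of the CC, CXC, XC and CX3C families named by symbol, among 21881 genes in the expression table, and all 33 symbols were found there. The table held messenger RNA levels of 4 libraries from immortalised mesenchymal stem cell lines of adult C57BL/6 mouse bone marrow. Clone 6 and clone 12 are independent monoclonal lines, both Dicer f/f (floxed Dicer that had not been deleted, so wild type for Dicer). Each line was infected with a puromycin-resistant pMMP-puro retrovirus that carried either the vector control (n = 2) or Flag-HA-NR6A1 (n = 2). NR6A1 is an orphan nuclear receptor that mostly represses its targets in embryos and germ cells, and all 4 cultures carried a virus. Each clone stands for 1 cell line, with 1 library per virus, so a p-value here measures how alike the libraries of a contrast were and not the spread between repeat cultures.

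Chemokines are small secreted proteins that guide leukocytes along a concentration gradient by binding G protein-coupled receptors. Their names follow the spacing of the first cysteines: adjacent in CC ligands and spaced apart in CXC and CX3C ligands. Inflammatory ligands such as Ccl2 and Cxcl1 are induced through NF-kB, the CXCR3 ligands Cxcl9, Cxcl10 and Cxcl11 through interferon, and homeostatic ligands such as Cxcl12 are made steadily. In bone marrow, Cxcl12 from stromal cells keeps blood stem cells in their niche, and Ccl2 from stromal cells lets monocytes leave into the blood.

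Levels were deposited as FPKM (fragment counts divided by transcript length and by library size), a scale per length on which genes can be compared. The steps between low values gave inferred depths of 20.55 to 24.45 megareads per library, but only 43.4% to 48.4% of values under 10 reads came within 0.1 of a whole number (20% would by chance), so read numbers are estimates. Nr6a1 was at 4.18 and 2.80 FPKM with vector and at 783 and 598 FPKM with NR6A1 in clone 6 and clone 12. Of 12 mesenchymal stem cell markers, 11 reached a mean of 1 FPKM, Vim at 1964 to 2404 and Itgb1 at 277 to 326 FPKM, while Thy1 was at 0.0297 FPKM or less. By limma (adjusted p under 0.05), Ly6a, Vcam1 and Cd44 were higher in clone 12, and Col1a1 and Pdgfra lower. These were 3 and 2 of the 11, against 11.5% and 10.5% of all genes tested. Ly6a was at 19.0 and 9.31 FPKM in clone 6 and at 317 and 125 FPKM in clone 12, with vector and NR6A1. Of 15 blood cell markers in the table, 3 reached a mean of 1 FPKM. These were Cd68 at 1.12 to 2.16, Itga2b at 0.698 to 2.81 and Cd74 at 0.296 to 8.18 FPKM. Ptprc, which marks all leukocytes, was at 0.0234 FPKM or less and Cd3e at 0, and the summed list ran from 3.75 to 13.7 FPKM. All 7 endothelial markers were at 0.141 FPKM or less. Of 7 epithelial markers only Krt14 reached the filter, at 12.9 FPKM with vector and 0.615 with NR6A1 in clone 6 and at 1.4997 and 0.298 FPKM in clone 12.

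Of the 33 ligands, 13 reached a mean of 1 FPKM over the 4 libraries and were tested, 13 were above 0 in some library but below that mean, and 7 were listed at 0 in every library. The 7 were Ccl3, Ccl12, Ccl19, Ccl24, Ccl28, Cxcl15 and Xcl1. Of the 13 below the mean, 8 never reached 0.2 FPKM, namely Ccl4, Ccl6, Ccl11, Ccl20, Ccl22, Cxcl2, Cxcl13 and Pf4. Neighbouring genes of one chemokine cluster were at very different levels. Ccl2 and Ccl7 stood at 39.3 FPKM or more in every library, while Ccl11, Ccl12 and Ccl8 of the same cluster were at 0.280 FPKM or less. Cxcl1 reached 81.2 FPKM and Cxcl5 91.9 FPKM, while Pf4, Cxcl3, Cxcl15 and Cxcl2, which lie in the same cluster, were at 0.214 FPKM or less. In these bulk libraries, fewer cells that express a gene and less RNA per cell cannot be told apart.

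**Figure D1:**
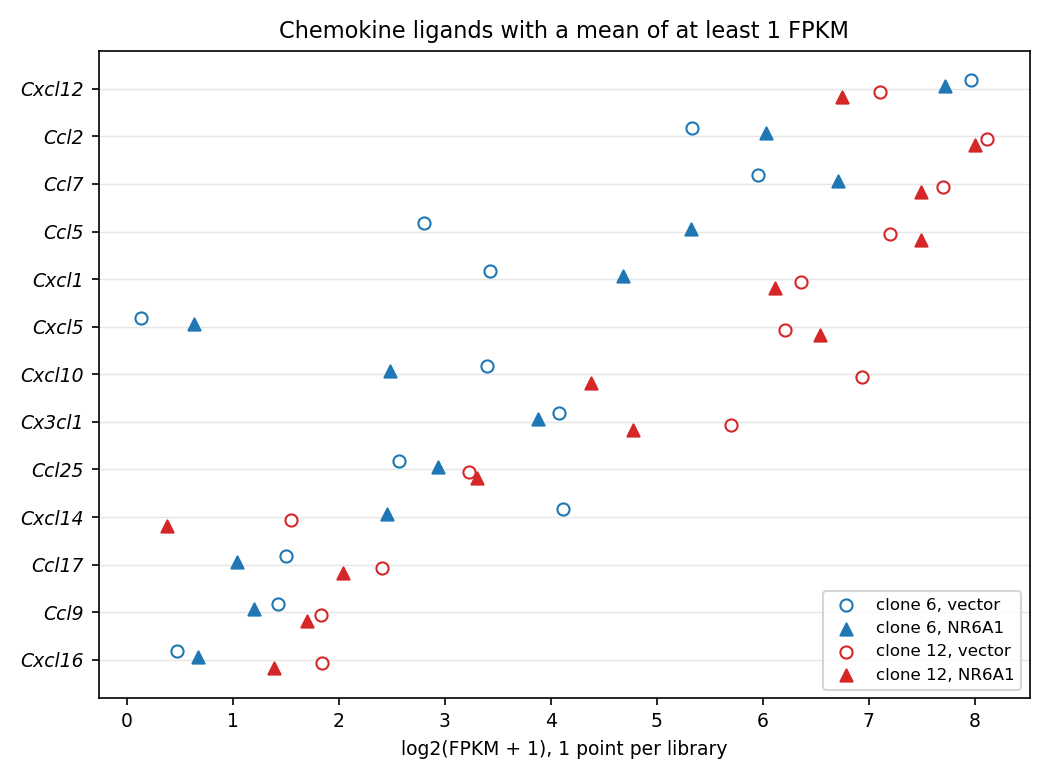
Level of the 13 tested chemokine ligands on the log2(FPKM + 1) scale, 1 point per library, with blue for clone 6, red for clone 12, open circles for vector and triangles for NR6A1. Both red points lie above both blue points for 11 ligands, and below both for Cxcl12 and Cxcl14.

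The sum of the 33 ligands was 416 FPKM with vector and 475 FPKM with NR6A1 in clone 6, and 1118 and 945 FPKM in clone 12. Cxcl12 alone made up 59.8% of the sum in clone 6 with vector and 44.1% with NR6A1. In clone 12 it made up 12.2% with vector and 11.3% with NR6A1, and Ccl2 was the most abundant ligand there, at 24.8% and 27.0%. Ccl5 made up 1.43% of the sum in clone 6 with vector and 8.20% with NR6A1, against 13.1% and 18.9% in clone 12. The single most abundant ligand was the homeostatic Cxcl12 in clone 6 and the inflammatory Ccl2 in clone 12, with either virus. In clone 6 with NR6A1, Ccl7 made up 21.8% of the sum and Ccl2 13.6%.

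**Figure D2:**
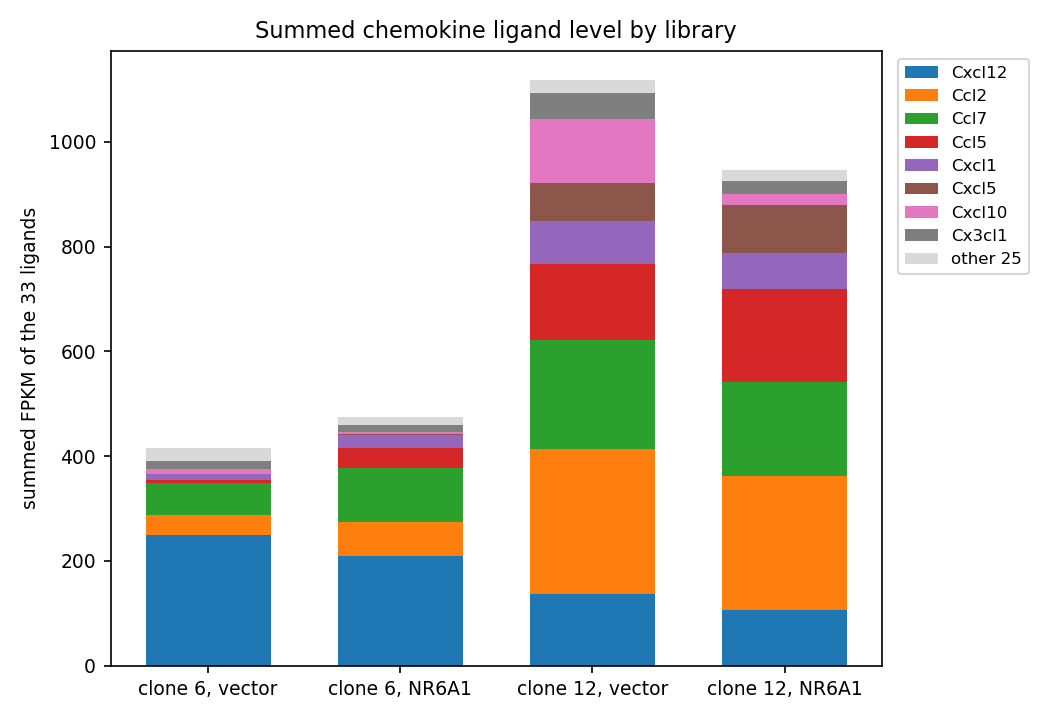
Summed FPKM of the 33 ligands in each library, stacked by gene for the 8 most abundant ligands and the other 25 together. The 2 clone 12 bars reach 945 and 1118 FPKM, the 2 clone 6 bars 416 and 475 FPKM, and Cxcl12 is the largest segment of the clone 6 bars.

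Promoter sequences from RefSeq were at hand for 24 of the 33 ligands, as the 250 bases before the annotated start on build GRCm38.p6 (the authors used mm9, so these coordinates belong to the later build). Sequences of Ccl2, Ccl5, Ccl7 and Cxcl5 were not used here. The following 4 are shown as examples of ligands called between the clones, Cxcl10 and Cxcl1 as higher in clone 12 and Cxcl14 and Cxcl12 as the ligands lower in it. Capitals mark matches, on either strand, to the NF-kB consensus (kappaB), to the interferon-stimulated response element searched as GAAA, any 2 bases and GAAA, and to the AP-1 element TGANTCA.
Cxcl10, chr5:92348890-92349139, minus strand: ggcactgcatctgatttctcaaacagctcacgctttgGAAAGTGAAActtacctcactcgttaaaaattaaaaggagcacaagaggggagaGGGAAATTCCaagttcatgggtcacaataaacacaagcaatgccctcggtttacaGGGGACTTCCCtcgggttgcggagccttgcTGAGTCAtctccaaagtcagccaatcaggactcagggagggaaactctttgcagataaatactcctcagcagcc
Cxcl1, chr5:90890995-90891244, plus strand: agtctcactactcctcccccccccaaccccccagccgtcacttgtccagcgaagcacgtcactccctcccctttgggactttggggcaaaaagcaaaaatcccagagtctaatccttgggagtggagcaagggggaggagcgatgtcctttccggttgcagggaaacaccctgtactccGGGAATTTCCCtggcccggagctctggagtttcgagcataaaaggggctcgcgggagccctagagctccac
Cxcl14, chr13:56296552-56296801, minus strand: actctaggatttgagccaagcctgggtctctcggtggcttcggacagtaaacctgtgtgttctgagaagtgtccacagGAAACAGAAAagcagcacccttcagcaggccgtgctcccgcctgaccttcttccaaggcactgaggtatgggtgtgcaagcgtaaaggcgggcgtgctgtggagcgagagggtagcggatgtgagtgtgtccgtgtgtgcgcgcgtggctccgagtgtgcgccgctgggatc
Cxcl12, chr6:117168285-117168534, plus strand: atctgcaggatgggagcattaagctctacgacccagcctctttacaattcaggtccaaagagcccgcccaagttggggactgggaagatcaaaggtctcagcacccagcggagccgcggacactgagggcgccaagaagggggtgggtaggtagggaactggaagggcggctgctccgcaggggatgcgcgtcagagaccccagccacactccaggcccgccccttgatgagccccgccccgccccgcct

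The Cxcl10 window held the interferon element at -213 to -204, overlapping kappaB matches at -104 to -94 with a separate one at -159 to -150, and the AP-1 element at -74 to -68, counted from the start. The Cxcl1 window held 1 kappaB site that reads on both strands, at -71 to -61, and Cxcl2 and Cxcl3 held the same 10 letters at -97 to -88 and -73 to -64. All 3 carry GGGAATTTCC, yet Cxcl1 was at 9.77 to 81.2 FPKM and Cxcl2 and Cxcl3 at 0.214 FPKM or less. The Cxcl14 match to the interferon element was at -172 to -163, and the Cxcl12 window had no match to the 3 motifs. Over 32851 mouse promoter windows of the same length, 7.25% held kappaB, 2.98% the interferon element and 6.75% AP-1; among the 24 ligands these were 6, 3 and 3. The half-site that NR6A1 is known to bind, TCAAGGTCA, was in 0.387% of all windows, the direct repeat of AGGTCA with no spacing in 0.00609%, and neither was in the windows of the 24 ligands. A match says that the letters are there, and its absence says only that they are not in this window.

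The comparison of the lines asked how far 2 independent clones of the same cell type differ in the ligands they make. All 13 tested ligands separated the clones without overlap, 11 higher and 2 lower in clone 12; over all 11346 genes tested, 37.7% were higher without overlap and 30.3% lower. By limma, with virus as the block and an adjusted p (Benjamini-Hochberg) under 0.05, 8 ligands were higher and 2 lower in clone 12. Over all genes tested, 11.5% were called higher and 10.5% lower, 21.9% in all. The median log2 difference over the 13 was 1.26, against 0.0351 over all genes tested. Cxcl5 and Cxcl16 had a mean under 1 FPKM in clone 6 and passed the filter only through clone 12, so they had to differ in that direction. Of the 11 others, 9 were higher and 2 lower without overlap, and 7 were called higher and 2 lower. With 3 libraries and no block, 2 ligands were called without vector replicate 6, 5 without NR6A1 replicate 6, 1 without vector replicate 12 and 1 without NR6A1 replicate 12, where replicates carry the clone's number. With no filter on low values limma called no gene at all for this contrast (4587 genes at an unadjusted p under 0.05).

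**Figure D3:**
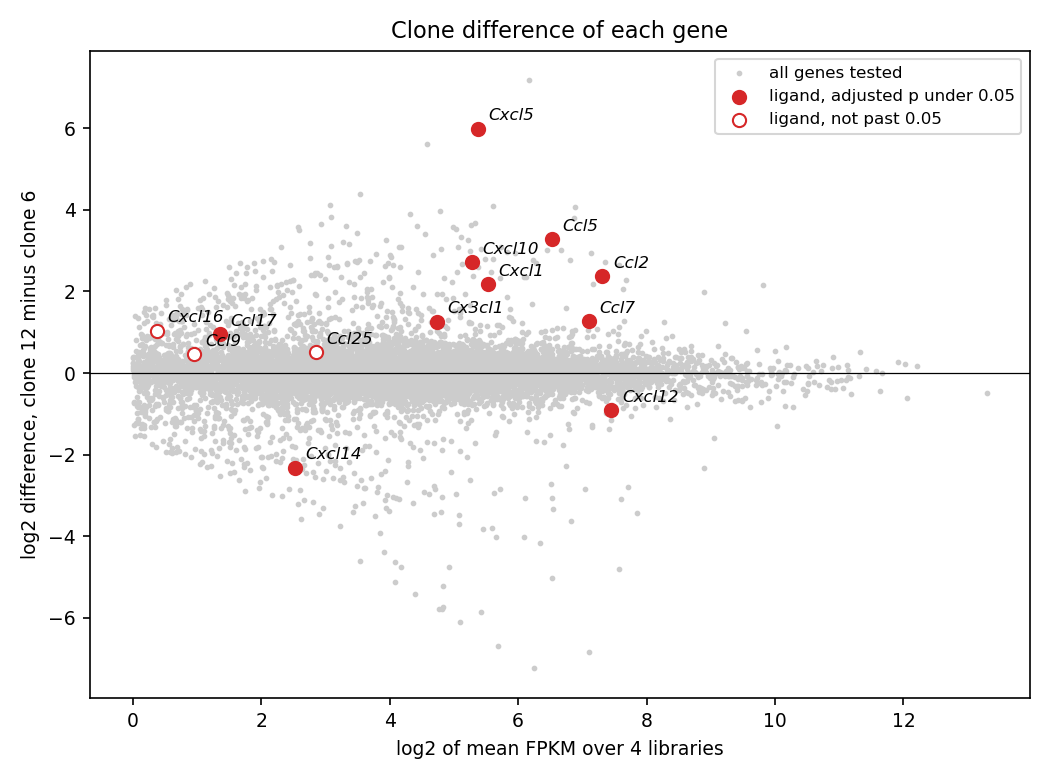
Log2 difference between clone 12 and clone 6 (fitted on log2(FPKM + 1)) against the log2 of the mean FPKM, with grey points for all 11346 genes tested and red points for the 13 ligands, filled where the limma adjusted p is under 0.05. Cxcl5 lies at 5.99, near the top of the plot, and Cxcl14 lies lowest of the ligands at -2.32.

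Cxcl5, a ligand that attracts neutrophils through Cxcr2, had the largest fitted difference of the 13 ligands. It was at 0.0941 FPKM with vector and 0.552 with NR6A1 in clone 6, and at 73.0 and 91.9 FPKM in clone 12. The clone 6 values rest on about 3.1 and 15.9 inferred reads, and the clone 12 values on 2275.7 and 2559.3, so the gene was close to silent in one line and abundant in the other. The log2 difference of Cxcl5 was 5.99 ± 0.10 (SE, limma adjusted p = 0.00157, and 0.189 with no filter on low values), with the limit just given on how it passed the filter. Its size depends on the pseudocount, the value added before the log. With 0.1 or 5 FPKM in place of 1, the difference was 7.85 and 4.03. Cxcl1, another Cxcr2 ligand, was at 9.77 and 24.6 FPKM in clone 6 and at 81.2 and 68.5 FPKM in clone 12, with vector and NR6A1 in that order here and below. Its log2 difference was 2.19 ± 0.38 (SE, limma adjusted p = 0.0357). Ppbp, the neighbour of Cxcl5 and a platelet chemokine, stayed under the filter at 0.00311 and 0.457 FPKM in clone 6 and 0.544 and 2.16 FPKM in clone 12; its highest value stood for about 38.3 inferred reads.

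Monocyte and T cell attracting CC ligands were also higher in clone 12. Ccl2, the main Ccr2 ligand, was at 39.3 and 64.4 FPKM in clone 6 and at 277 and 255 FPKM in clone 12, a log2 difference of 2.38 ± 0.22 (SE, limma adjusted p = 0.0185). Its neighbour Ccl7, which shares that receptor, was at 61.1 and 104 FPKM in clone 6 and at 207 and 179 FPKM in clone 12 (1.26 ± 0.25, limma adjusted p = 0.0429). Clone 6 made more Ccl7 than Ccl2 message with either virus, and clone 12 more Ccl2 than Ccl7. Ccl5, which attracts T cells and monocytes, was at 5.97 and 38.9 FPKM in clone 6 and at 146 and 179 FPKM in clone 12 (3.29 ± 0.57, limma adjusted p = 0.0351). The ratio of clone 12 to clone 6 for Ccl5 was 24.5 with vector and 4.60 with NR6A1. Ccl17, a Ccr4 ligand, was low throughout, at 1.84 and 1.06 FPKM in clone 6 and 4.30 and 3.11 FPKM in clone 12 (0.95 ± 0.14, limma adjusted p = 0.0286). Those values rest on about 13.2 and 6.6 inferred reads in clone 6 and 29.1 and 18.8 in clone 12.

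The interferon-induced Cxcl10, a Cxcr3 ligand, was at 9.52 and 4.59 FPKM in clone 6 and at 121 and 19.8 FPKM in clone 12, a log2 difference of 2.72 ± 0.42 (SE, limma adjusted p = 0.0302). The lower clone 12 library was still above both clone 6 libraries, but the call ended without any 1 of the 4 libraries (1.44 to 3.996) and without the virus block (limma adjusted p = 0.115). The 2 other Cxcr3 ligands, its neighbours, stayed under the filter: Cxcl9 was at 0 and 0.0350 FPKM in clone 6 and 0.434 and 0.144 FPKM in clone 12, and Cxcl11 at 0 and 0.0778 against 2.36 and 0.352 FPKM. RefSeq lists Cxcl11 as a transcribed pseudogene in the C57BL/6J assembly. Cx3cl1, a ligand tethered to the cell membrane and cut free by Adam10 and Adam17, was at 15.9 and 13.7 FPKM in clone 6 and 51.1 and 26.3 FPKM in clone 12 (1.26 ± 0.20, limma adjusted p = 0.0305).

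Against this direction stood the homeostatic ligands Cxcl12 and Cxcl14. Cxcl12 was at 249 and 209 FPKM in clone 6 and at 137 and 107 FPKM in clone 12, a log2 difference of -0.91 ± 0.07 (SE, limma adjusted p = 0.0156). Even so it stood among the 4 most abundant ligands of each library. Cxcl14, a CXC ligand expressed in many epithelia and in fibroblasts, was at 16.3 and 4.48 FPKM in clone 6 and at 1.93 and 0.299 FPKM in clone 12 (-2.32 ± 0.17, limma adjusted p = 0.0143). Its ratio of clone 6 to clone 12 was 8.47 with vector and 15.0 with NR6A1, although the last library rests on about 9.9 inferred reads. The epithelial marker Krt14 was likewise highest in clone 6 with vector and lowest in clone 12 with NR6A1. It differed by -1.40 ± 0.57 between the clones (limma adjusted p = 0.153) and passed the filter only through clone 6. Krt19 and Krt8, both under the filter, went the other way. Krt19 was at 0.128 and 0.175 FPKM in clone 6 and at 1.59 and 0.996 FPKM in clone 12. Epcam and Cdh1 were at 0.0523 FPKM or less. The part of these markers in the Cxcl14 difference was not tested.

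The remaining 3 tested ligands did not pass between the clones. Cxcl16, a membrane-bound Cxcr6 ligand, was at 0.388 and 0.594 FPKM in clone 6 and 2.58 and 1.62 FPKM in clone 12 (1.04 ± 0.25, limma adjusted p = 0.0564, from 0.0218 to 0.272 over the other settings). Ccl25, a thymus and gut ligand of Ccr9, was at 4.94 and 6.67 FPKM in clone 6 and 8.38 and 8.87 FPKM in clone 12 (0.51 ± 0.12, limma adjusted p = 0.0545, from 0.028 to 0.317). Ccl9, a Ccr1 ligand, was at 1.68 and 1.30 against 2.56 and 2.25 FPKM (0.45 ± 0.15, limma adjusted p = 0.11, from 0.0545 to 0.36). Ccl27a, a ligand gene outside the 33, was at 4.25 and 5.27 against 3.64 and 3.003 FPKM (-0.41 ± 0.16, limma adjusted p = 0.148).

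Genes around the ligands were read from lists of the pathway. Of 18 tested NF-kB subunits, inhibitors and kinases, 7 were called higher in clone 12 and none lower, against 11.5% and 10.5% of all genes tested, with a median log2 difference of 0.35. Nfkb1, the p50 subunit gene, was at 25.4 and 28.0 FPKM in clone 6 and 43.4 and 42.0 FPKM in clone 12, and Nfkb2, of the p52 subunit, at 51.8 and 54.4 against 82.7 and 78.8 FPKM. The inhibitor gene Nfkbie had the largest difference of the list (1.44 ± 0.12), followed by the coactivator gene Bcl3 (1.27 ± 0.19) and the subunit gene Relb (0.86 ± 0.11). Bcl3 passed the filter only through clone 12, and of the 17 others 6 were called higher. Ikbkg, the scaffold of the kinase complex, and the inhibitor gene Tnip1 were called at 0.51 ± 0.08 and 0.38 ± 0.08. Rela, the p65 subunit gene, was at 50.7 and 58.8 against 56.1 and 58.3 FPKM and the kinase gene Chuk at 38.3 and 36.0 against 36.5 and 37.9 FPKM; neither passed.

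Receptors and adaptors that can switch on chemokine genes had 17 members tested, 8 called higher in clone 12 and 2 lower, against the same 11.5% and 10.5% of all genes, with a median of 0.38. Tlr6 passed the filter only through clone 12 and was not called, and of the 16 others 8 were called higher and 2 lower. Il13ra1, an interleukin 13 receptor chain, was at 2.58 and 4.63 FPKM in clone 6 and 27.1 and 26.7 FPKM in clone 12, and Osmr, the oncostatin M receptor, at 8.05 and 7.11 against 23.1 and 23.9 FPKM. The interleukin 1 receptor gene Il1r1 was at 4.82 and 5.53 against 11.0 and 11.4 FPKM and its adaptor gene Myd88 at 18.9 and 21.9 against 33.4 and 31.2 FPKM. Also called higher were Tnfrsf1b (0.92), Tlr3 (0.90), Il4ra (0.80) and Il6st (0.38), as log2 differences. Ltbr, the lymphotoxin beta receptor (-0.35), and Il17ra, an interleukin 17 receptor chain (-0.35), were called lower, while Tnfrsf1a, the main TNF receptor, at 79.5 and 69.8 against 62.6 and 58.8 FPKM, did not pass.

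Among 14 interferon signalling genes, 3 were called higher in clone 12 and 1 lower, against 11.5% and 10.5% of all genes tested. Both directions together were near the 21.9% of all genes called. The median log2 difference was 0.18, against 0.0351 over all genes tested. Irf7, a master regulator of interferon genes, was at 3.35 and 11.0 FPKM in clone 6 and 69.1 and 66.4 FPKM in clone 12 (3.25 ± 0.39). Irf1 was at 22.0 and 24.8 against 50.5 and 39.5 FPKM and Stat2 at 12.5 and 17.1 against 29.0 and 26.7 FPKM. The interferon gamma receptor gene Ifngr1 was lower, at 45.9 and 39.9 against 28.7 and 27.2 FPKM. Cd74, the class II invariant chain and the 1 blood cell marker called between the clones, passed the filter only through clone 12 and was at 0.367 and 0.296 against 8.18 and 4.69 FPKM; the part of other cells in these differences was not tested, and Ptprc and Cd3e were at the values given above.

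**Figure D4:**
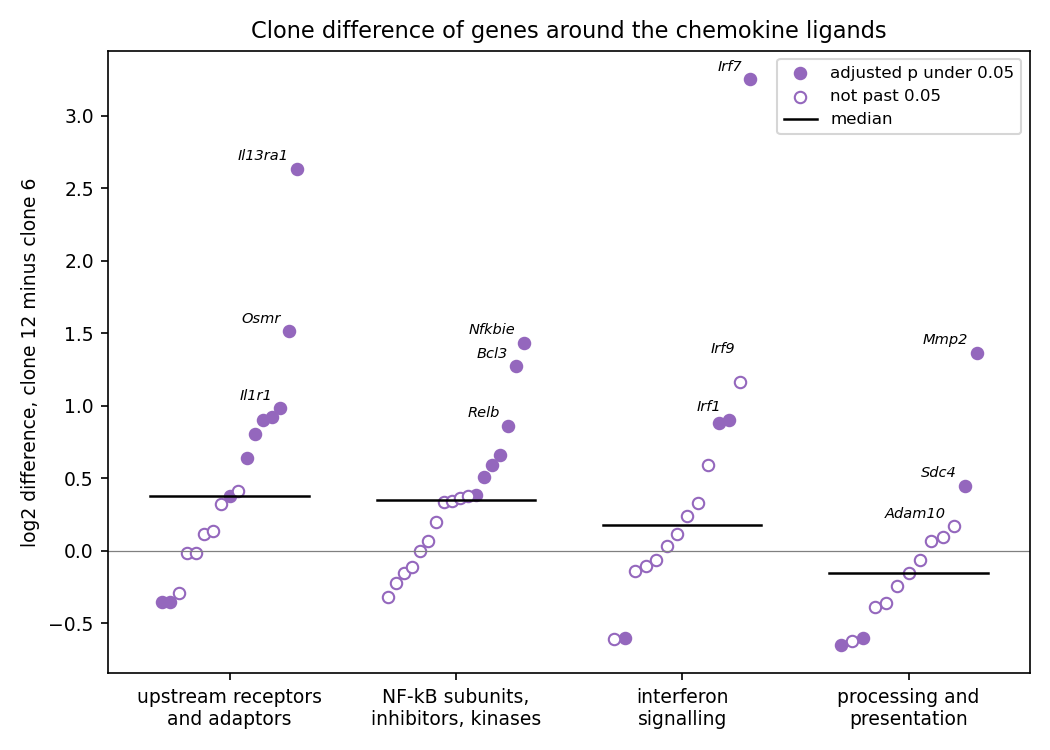
Log2 difference between clone 12 and clone 6 for each tested gene of 4 lists, filled where the limma adjusted p is under 0.05, with the median of each list as a black line. Medians are 0.38, 0.35, 0.18 and -0.15 from left to right, and Irf7 lies highest at 3.25.

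Genes that shape ligands after secretion showed no common direction between the clones: of 13 tested, 2 were called higher and 2 lower, near the 11.5% and 10.5% of all genes, with a median of -0.15. Mmp2, a protease that trims Ccl7 and Cxcl12, was at 3.25 and 5.97 FPKM in clone 6 and 12.1 and 14.04 FPKM in clone 12, and the syndecan gene Sdc4 at 45.3 and 60.6 against 67.5 and 76.8 FPKM. Ext2 and Ndst2, which build the heparan sulfate that holds chemokines on cell surfaces, were lower (-0.60 and -0.65). Adam10 was at 36.0 and 40.7 against 41.2 and 45.4 FPKM and did not pass.

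Receptors for these ligands were close to absent. No gene of 18 chemokine receptors had a mean of 1 FPKM; Xcr1 had the highest value, 0.40 FPKM. Receptors of abundant ligands were at 0.117 FPKM or less for Cxcr4 (Cxcl12), at 0 for Ccr2 (Ccl2 and Ccl7) and Cxcr2 (Cxcl1 and Cxcl5), and at 0.0309 FPKM or less for Cxcr3 (Cxcl10). Of the 5 atypical receptor genes in the table, which take up ligands without signalling through G proteins, the highest value was 0.296 FPKM (Ccrl2), and Cxcr7, which binds Cxcl12, was at 0.0208 to 0.238 FPKM.

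The comparison of viruses asked which ligands differ when NR6A1 is raised. By limma with clone as the block, none of the 13 tested ligands passed over all genes tested, where 0.0353% of genes were called (4 of 11346, with 1 gene or 0.00881% lower). At an unadjusted p under 0.05, 5 ligands were lower and 1 higher with NR6A1, against 5.01% and 3.47% of all genes tested, 8.48% in all. The 5 were Cxcl14, Cxcl10, Cxcl12, Ccl17 and Cx3cl1, and the 1 was Cxcl5. Of the 13, 6 were lower in both clones, 3 higher in both and 4 higher in clone 6 and lower in clone 12; over all genes tested these were 29.4%, 28.9% and 23.1%. The median log2 change of the 13 was 0.20 in clone 6 and -0.24 in clone 12, against 0.0113 and -0.00961 over all genes tested.

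Cxcl14 came closest to the threshold. From the values above, it was 3.64-fold lower with NR6A1 in clone 6 and 6.44-fold lower in clone 12, and the log2 change was -1.42 ± 0.17 (SE, limma adjusted p = 0.225). Without the short RNA genes of the table, the adjusted p was 0.0493 and Cxcl14 was the 1 ligand called, among 0.467% of genes called; over the other settings the limma adjusted p ran up to 1. With a pseudocount of 0.1 or 5 FPKM in place of 1, the log2 change was -2.09 and -0.78. Krt14 was also lower with NR6A1 in both clones (-2.03 ± 0.57, limma adjusted p = 0.521). Other epithelial markers, under the filter, did not share that direction. Krt8 was higher with NR6A1, at 0.0384 and 0.0884 FPKM in clone 6 and 0.108 and 0.182 FPKM in clone 12. Krt19 was higher with NR6A1 in clone 6 and lower in clone 12. The part of these markers in the Cxcl14 values was not tested.

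Cxcl10 was lower in both clones by unequal amounts, 2.07-fold in clone 6 and 6.13-fold in clone 12. The log2 change was -1.73 ± 0.42 (SE, limma adjusted p = 0.467, from 0.185 to 1 over the other settings), with -0.91 in clone 6 and -2.56 in clone 12. Without vector replicate 12 the fitted change was 0.04, but that fit had no clone block, so this value also holds the difference between the clones. The neighbours were also lower with NR6A1 in clone 12, where the untested Cxcl11 stood at about 73.7 inferred reads with vector and 9.8 with NR6A1, and Cxcl9 at 26.6 and 7.9. In clone 6 those 2 genes had at most 2.2 inferred reads, so a difference was not detectable at this depth. Art3 overlaps Cxcl10 and Cxcl11 in RefSeq, and its highest value was 0.0951 FPKM. In clone 6, Irf7 was at 3.35 and 11.0 FPKM and Irf9 at 12.6 and 23.7 FPKM with vector and NR6A1, while Cxcl10 was at 9.52 and 4.59 FPKM. In clone 12 all 3 were lower with NR6A1, Irf7 at 69.1 and 66.4 FPKM and Irf9 at 42.1 and 38.3 FPKM. Over the 14 tested interferon signalling genes, the median log2 change was -0.009 in clone 6 and -0.098 in clone 12. The part of these genes in the Cxcl10 values was not tested.

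Cxcl12 was 1.19-fold lower with NR6A1 in clone 6 and 1.28-fold lower in clone 12 (-0.30 ± 0.07, SE, limma adjusted p = 0.467). Cx3cl1 was 1.16-fold lower in clone 6 and 1.94-fold lower in clone 12 (-0.57 ± 0.20, limma adjusted p = 0.586). Ccl17 was 1.74-fold and 1.39-fold lower (-0.42 ± 0.14, limma adjusted p = 0.579), in clone 6 on about 13.2 against 6.6 inferred reads. Ccl9 differed by -0.18 ± 0.15 and was the sixth ligand lower in both clones (limma adjusted p = 0.746). Within each clone these 4 ligands were lower with NR6A1. Across the clones their vector and NR6A1 libraries overlapped, as they did for every tested ligand.

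Ccl5 was the ligand with the largest difference in clone 6, 6.52-fold higher with NR6A1, on about 45.5 inferred reads with vector and 257.5 with NR6A1. In clone 12 it was 1.22-fold higher, and the log2 change over both was 1.40 ± 0.57 (SE, limma adjusted p = 0.631). On the log2(FPKM + 1) scale, Cxcl5 was 0.50 and 0.33 units higher in clone 6 and clone 12 (0.42 ± 0.10, limma adjusted p = 0.438). The clone 6 change was from 0.0941 to 0.552 FPKM, on 3.1 against 15.9 inferred reads. With a pseudocount of 0.1 or 5 FPKM in place of 1, the change over both clones was 1.04 and 0.22. Ccl25 was 1.35-fold and 1.06-fold higher (0.22 ± 0.12, limma adjusted p = 0.647). Ppbp, not tested, was at about 0.1 against 8.4 inferred reads in clone 6 and 10.8 against 38.3 in clone 12.

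Cxcl1, Ccl7, Ccl2 and Cxcl16 were the 4 ligands with opposite directions in the lines. Cxcl1 was 2.52-fold higher with NR6A1 in clone 6 and 1.19-fold lower in clone 12, Ccl7 1.69-fold higher and 1.16-fold lower, and Ccl2 1.64-fold higher and 1.09-fold lower. Their changes over both clones were 0.51 ± 0.38, 0.27 ± 0.25 and 0.29 ± 0.22 (SE, limma adjusted p = 0.716, 0.756 and 0.716). Cxcl16 was 1.53-fold higher and 1.60-fold lower (-0.13 ± 0.25, limma adjusted p = 0.883), on 23.5 to 147.3 inferred reads. In clone 6, 4 of the 13 were at least 1.5-fold higher with NR6A1 on the log2(FPKM + 1) scale (Ccl5, Cxcl1, Ccl7, Ccl2) and 2 at least 1.5-fold lower (Cxcl14, Cxcl10), against 3.05% and 3.39% of all genes tested. In clone 12 none was at least 1.5-fold higher and 3 were at least 1.5-fold lower (Cxcl10, Cxcl14, Cx3cl1), against 1.29% and 2.5%. With 1 library per clone and virus, none of these within-clone differences has a replicate check.

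**Figure D5:**
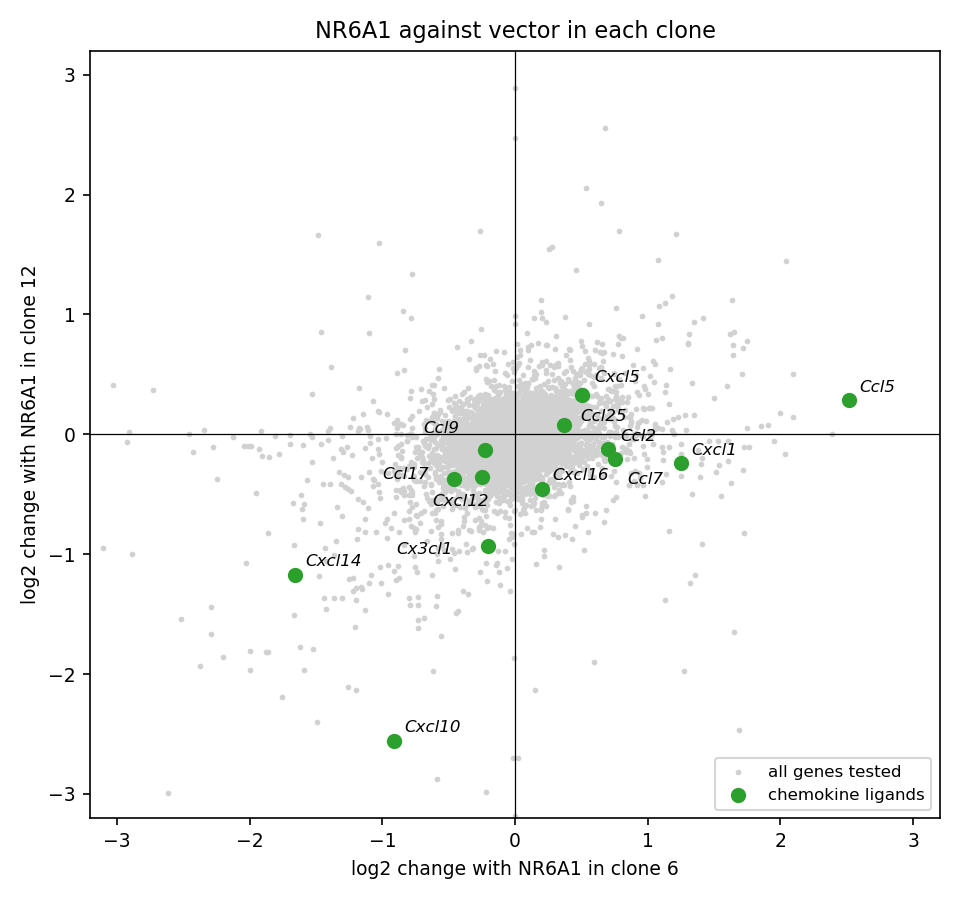
Log2 change with NR6A1 against vector, on the log2(FPKM + 1) scale, in clone 6 (horizontal) and clone 12 (vertical), with grey points for all genes tested (99 lie outside the axes) and green points for the 13 ligands. Cxcl10 and Cxcl14 lie low in both clones, Ccl5 lies far right at 2.52, and Ccl2, Ccl7, Cxcl1 and Cxcl16 lie right of and below the centre.

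On the log2(FPKM + 1) scale, the gap between the lines was smaller with NR6A1 than with vector for 10 of the 13 ligands, against 60.2% of all genes tested. The ratio of clone 12 to clone 6 with vector and with NR6A1 was 7.05 and 3.95 for Ccl2, 3.38 and 1.73 for Ccl7, 8.31 and 2.78 for Cxcl1, 12.8 and 4.31 for Cxcl10, and 3.21 and 1.92 for Cx3cl1. The gap was wider with NR6A1 for Cxcl12, Ccl9 and Ccl17. For Cxcl14 it was smaller on this scale, but the FPKM ratio of clone 6 to clone 12 was wider, 8.47 with vector and 15.0 with NR6A1. Whether the effect of NR6A1 differs between the lines could not be tested, because 4 libraries leave no residual for that term. In the lists around the ligands, limma called no NF-kB, interferon signalling, upstream receptor or processing gene between the viruses. Nfkbia, the NF-kB inhibitor gene that NF-kB itself induces, was at 28.8 and 24.7 FPKM in clone 6 and 39.7 and 30.1 FPKM in clone 12 (-0.30 ± 0.08, limma adjusted p = 0.521). The median log2 change over the lists was between -0.09 and 0.09.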

How the data were processed

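Polyadenylated RNA of 4 cultures was sequenced from Illumina libraries, per the labels' protocols. The authors deposited FPKM values, 1 column per library and no pooling. TopHat 1.2.0, Cufflinks 1.0.3 and mouse build mm9 come from the submitters' processing notes; for annotation and strand the sources used here name no setting. Cufflinks can split reads among near-identical or overlapping genes, so values of close paralogs are uncertain. Groups and clones came from the sample titles. Each line received both viruses, so clone was the block for virus and virus for clone; the clone difference correlated between viruses with r = 0.6285 across tested genes. Tests used log2(FPKM + 1), which understates changes of low genes, on 11346 genes whose mean reached 1 FPKM, with limma 3.58.1 in R 4.3.3 (mean-variance trend, two-sided, 1 residual degree of freedom) and Benjamini-Hochberg adjustment at 0.05; the fit was tried on simulated data. Inferred reads rest on 1739 genes with 1 GENCODE transcript of GRCm38, a length shift of 220 bases and each ligand's longest coding transcript. Promoters are RefSeq, GRCm38.p6. Described genes were all ligands and, of each list, mainly called genes and up to 4 of the highest mean. Other pseudocounts, filters, scalings, priors and blocks, and each library left out, were tried. Members, lists and alternatives were chosen with earlier results of these data known. Some genes of the lists are not reported here and were left out of the list counts.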

Additional observations from a re-analysis of the deposited data

Results flagged for a closer look

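Ccl2, Ccl7, Cxcl1 and Cxcl16 were higher with NR6A1 in clone 6 and lower with NR6A1 in clone 12, so that the only pair of libraries of each line moved the opposite way from the other. The log2 change in clone 12 minus that in clone 6 was -0.82 for Ccl2, -0.96 for Ccl7, -1.49 for Cxcl1 and -0.65 for Cxcl16. The difference was not tested. Over all genes tested, 23.1% were higher in clone 6 and lower in clone 12.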

How the results depend on the processing

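Over 332 refits of the ligands under other settings, 252 kept their direction and side of the threshold, 53 lost and 7 gained a call, and 20 changed sign, all 20 with a library left out. Against 10 ligands and 2490 genes called between the clones, 6 ligands were called without the virus block. These were 5 of the 10, and Cxcl16, while Ccl5, Ccl17, Cx3cl1, Cxcl10 and Cxcl14 lost the call. With no filter on low values 0 ligands and 0 genes were called. Without the mean-variance trend 7 ligands and 1581 genes were called, and Ccl5, Ccl7 and Cxcl1 lost the call. With a robust prior 8 ligands and 3092 genes were called. There Ccl5, Ccl7, Cxcl1 and Cxcl10 lost the call (limma adjusted p = 0.265, 0.154, 0.218 and 0.2), and Ccl25 and Cxcl16 gained it. Without the short RNA genes 12 ligands and 3490 genes were called. Leaving out a library gave 1 to 5 ligands and 41 to 889 genes: Cxcl5 each time, Ccl2 without either clone 6 library, and Ccl5, Ccl7 and Cxcl1 without NR6A1 replicate 6. The clone differences kept their direction in those fits, from 0.72 to 1.18 for Ccl17, 2.03 to 2.73 for Ccl2, 2.03 to 4.55 for Ccl5, 0.89 to 1.64 for Ccl7, 0.79 to 1.72 for Cx3cl1, 1.56 to 2.81 for Cxcl1, -1.09 to -0.74 for Cxcl12, -3.15 to -1.49 for Cxcl14 and 5.74 to 6.24 for Cxcl5. Between the viruses (4 genes, 0 ligands), 7 genes were called with a pseudocount of 5 FPKM, 0 with no filter (1468 at an unadjusted p under 0.05), 38 with a robust prior and 52 without the short RNA genes, where 1 ligand, Cxcl14, was called; leaving out a library gave 0 genes. Without the replicate block of clone, 4 genes and 0 ligands were called for the viruses (156 genes unadjusted). No ligand was called with the block either, so the call count cannot show what the block did. At an unadjusted limma p under 0.05, 6 ligands passed with the block and 0 without it. The fits with a library left out had no block, so each change with NR6A1 there is mixed with the difference between the clones. The cause of the shifts was otherwise not tested.

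With a library left out and no block, the log2 change with NR6A1 ran from -0.92 to 0.083 for Ccl17, -1.11 to 1.68 for Ccl2, -0.11 to 0.55 for Ccl25, -0.80 to 3.605 for Ccl5, -0.60 to 1.14 for Ccl7, -0.43 to 0.075 for Ccl9, -1.38 to 0.24 for Cx3cl1, -0.96 to 1.97 for Cxcl1, -3.50 to 0.037 for Cxcl10, -0.78 to 0.18 for Cxcl12, -0.81 to 0.56 for Cxcl16 and -2.62 to 3.46 for Cxcl5. Cxcl14 kept its direction, from -2.70 to -0.13. Depth limits Cxcl9, Cxcl11, Cxcl5, Ccl17 and Ppbp in clone 6, at 15.9 inferred reads or less.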
